A study of Mus musculus with 6 samples.

Results

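The genes of voltage-gated sodium channels, voltage-gated calcium channels and hyperpolarization-activated HCN channels were compared between autophagy-deficient and control mouse brains. The members were all genes whose symbol in the array annotation is that of a sodium channel alpha or beta subunit (Scn), a calcium channel alpha1, alpha2delta, beta or gamma subunit (Cacn) or an HCN subunit (Hcn). They were 38 of the 19687 genes tested, 21 of them pore-forming and 17 auxiliary. The RefSeq gene table holds 44 such symbols, and the remaining 6 are not analysed here. Sodium channels carry the rising phase of the action potential, calcium channels couple depolarization to transmitter release and gene expression, and HCN channels open on hyperpolarization and shape the resting membrane and rhythmic firing. In each of the sodium and calcium families 1 large subunit forms the pore, and auxiliary subunits set its trafficking, its gating or, for most of the gamma subunits, the trafficking of AMPA-type glutamate receptors. In the cortex the channels of excitatory cells and of interneurons differ, and several subunits are known for high levels in the striatum, the thalamus or muscle.

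RNA came from 3 cKO samples, labelled NexCre:Atg7f/f, and 3 control samples, labelled NexCre:Atg7+/+, at postnatal day 16, all on the C57BL/6 background and all carrying Cre. The driver is Nestin-Cre and the tissue cerebral cortex in the paper's methods, whereas the sample labels give NexCre and brain. Nestin-Cre recombines in the precursors of neurons and glia, and NexCre in excitatory cortical neurons. Each sample was hybridised to 1 Affymetrix mouse exon array, and the deposited values are log2 signals of transcript clusters, the groups of probes for 1 transcribed region. Where a gene had several clusters, the cluster with the highest mean was taken. All differences below are cKO minus control on this log2 scale, with the standard error and p from limma. Whether the 6 arrays stand for 6 animals is not stated, and the p-values refer to the spread between these samples, which may be technical.

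Atg7 itself was at 6.12, 6.03 and 5.90 in the cKO arrays, against 6.58, 6.54 and 6.39 in the control arrays, without overlap (-0.48, standard error 0.092, unadjusted p = 0.00125 and adjusted p = 1 from limma), on a cluster that the annotation shares with Camsap1. The arrays differed in ways that genotype did not explain. The first principal component (36% of the variance) set cKO replicate 1 and control replicate 1 apart from the other 4 arrays. The second (18.3%) separated the genotypes, at -12.7, -13.7 and -4.08 in the cKO arrays, against 14.3, 6.1 and 10.1 in the control arrays. The female-specific RNA Xist was high in cKO replicate 1 alone (9.51, against 3.48 to 4.15 in the other 5 arrays). Of the 9 measured markers of excitatory cortical neurons and 7 of interneurons, none lay in the lowest 25% of genes by mean signal. The excitatory markers had a median difference of -0.01, with 4 higher and 5 lower means, and the interneuron markers one of -0.10, with 2 higher and 5 lower. None passed the test. Only 1 of the 9 excitatory markers, Neurod6, had an unadjusted p under 0.05 from limma. Neurod6 was at 7.18, 7.78 and 7.47 in the cKO arrays, against 7.99, 7.80 and 7.97 in the control arrays. It differed by -0.44 (unadjusted p = 0.0243 and adjusted p = 1 from limma). The mean log2 signal of 6 thalamic markers was 7.12 in cKO replicate 1 and 6.96 in control replicate 2, while the remaining 4 arrays had 6.07 to 6.26. Markers of microglia, endothelium, cerebellum and hypothalamus had median differences between -0.004 and 0.04, and 5 astrocyte markers one of 0.10. In bulk samples, fewer cells of a type and less RNA per cell cannot be told apart.

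No channel gene passed the test over all genes. In simulated data the same procedure recovered 0% of genes changed by 0.5 in log2. The absence of passing members thus does not show that they were unchanged. After Benjamini-Hochberg adjustment 0 of the 38 genes passed an adjusted p of 0.05 from limma, as did 0% of all genes tested, and the adjusted p of every member was 1. At an unadjusted p under 0.05 there were 3 members (7.89%), where 779 genes in all (3.96%) lay under it. They were Scn4b and Hcn2, with lower means in the cKO brains (1.86% of all genes), and Cacng7, with a higher mean (2.09%). With 1 array left out in turn, Scn4b and Cacng7 kept an unadjusted p under 0.05 in 2 of 6 cases each, and Hcn2 in 0. The groups did not overlap for 3 members (7.89%), Hcn2, Cacng7 and Cacng8, against 8.39% of all genes tested (4.24% lower and 4.15% higher in the cKO brains). This count lay near the background. A mean below that of the controls was found for 25 of the 38 members (65.8%), against 52.5% of all genes, and a higher mean for 13, against 47.5%. The median difference of the members was -0.05 and that of all genes -0.01. Within 0.2 of zero in either direction lay 33 of the 38 members and 17240 of all 19687 genes, a similar share.

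Pore-forming and auxiliary subunits are given apart. Of the 21 pore-forming genes 8 had a higher and 13 a lower mean in the cKO brains, with a median of -0.03 and a range of -0.17 to 0.08. Of the 17 auxiliary genes 5 had a higher and 12 a lower mean, with a median of -0.11 and a wider range of -0.72 to 0.22. The auxiliary median was -0.06 without control replicate 3 and -0.05 with the clusters of each gene averaged, and the pore median lay between -0.06 and -0.01 with 1 array left out in turn. Relative to the control mean, the median auxiliary gene was at 0.015, -0.14 and -0.16 in cKO replicates 1 to 3, against 0.080, 0.0055 and -0.045 in control replicates 1 to 3. Without a correction for the level of each array, cKO replicate 1 thus lay within the range of the control arrays, and cKO replicates 2 and 3 below it. The median over all genes was at 0.053, -0.018 and -0.039 in the cKO arrays, against 0.022, -0.012 and -0.0091 in the control arrays. The cKO arrays thus had the same order over all genes. The median pore-forming gene was at 0.018, -0.031 and -0.062 in the cKO arrays, against -0.0083, 0.024 and 0.019 in the control arrays. The difference between both classes was not tested.

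**Figure D1:**
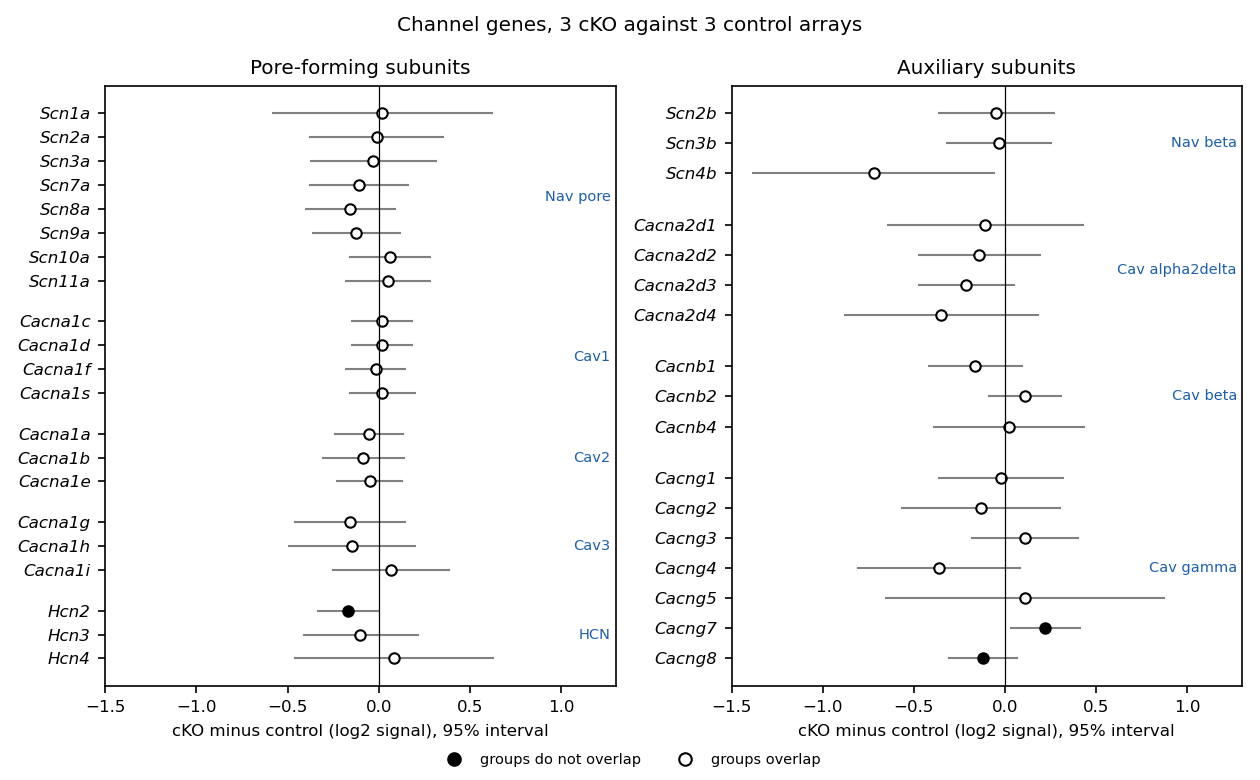
Difference of each channel gene, cKO minus control in log2 signal (x axis), with its 95% interval from limma (lines), for pore-forming (left) and auxiliary subunits (right) grouped by subfamily. Filled points mark the 3 genes whose 3 cKO and 3 control arrays did not overlap; the difference furthest from 0 is that of Scn4b, at -0.72.

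The groups overlapped for each of the 8 sodium channel alpha subunit genes, with differences between -0.15 and 0.06. Scn2a, the main sodium channel of excitatory neurons, had log2 signals of 8.52, 8.93 and 8.94 in the cKO arrays, against 8.58, 8.86 and 8.98 in the control arrays. The difference of -0.01 (standard error 0.15) had a 95% interval of -0.38 to 0.35. Scn1a, which carries much of the sodium current of fast-spiking interneurons, was at 6.83, 7.58 and 7.64 in the cKO arrays, against 6.96, 7.48 and 7.56 in the control arrays. In both groups replicate 1 was the low array, and the difference of 0.02 had an interval of -0.58 to 0.62, which leaves a difference of either sign possible at this spread. Scn8a, the channel of the axon initial segment and nodes of Ranvier, was at 7.96, 8.31 and 8.18 in the cKO arrays, against 8.29, 8.29 and 8.34 in the control arrays. Its difference of -0.15 (standard error 0.10) was the most negative of the 8 alpha subunits. Without cKO replicate 1, its lowest array, the difference was -0.06.

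Scn3a, mainly an embryonic sodium channel, differed by -0.03. Scn7a, a sodium-sensing channel of glia and other non-neuronal cells, differed by -0.11. The channels of peripheral sensory neurons, Scn9a, Scn10a and Scn11a, differed by -0.12, 0.06 and 0.05. Scn10a had the most positive difference of the alpha subunits, with 4.53, 4.28 and 4.32 in the cKO arrays, against 4.29, 4.27 and 4.39 in the control arrays. Scn7a, Scn9a, Scn10a and Scn11a were also the 4 members in the lowest 25% of genes by mean signal, where a difference says least. Scn1a, Scn2a, Scn3a, Scn7a and Scn9a lie in 1 cluster of 1327.8 kb on chromosome 2 (GRCm38.p6), and their differences ran from -0.12 to 0.02.

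The L-type (Cav1) calcium channel genes lay closest to 0 of the pore subfamilies, with differences between -0.02 and 0.02. Cacna1c, the main L-type channel of cortical neurons, was at 7.95, 7.96 and 7.86 in the cKO arrays, against 7.90, 7.93 and 7.88 in the control arrays. Its interval of -0.15 to 0.19 was among the narrowest of the members. Cacna1d, the other neuronal L-type gene, also differed by 0.02 (standard error 0.069). Cacna1f, the retinal L-type channel, was at 4.63, 4.56 and 4.61 in the cKO arrays, against 4.61, 4.66 and 4.59 in the control arrays. Cacna1s, the skeletal muscle L-type channel, was at 5.03, 5.01 and 4.90 in the cKO arrays, against 4.92, 5 and 4.95 in the control arrays. In each of these the groups overlapped. The 3 measured skeletal muscle markers (of 4 listed) differed by -0.02 to -0.01.

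The presynaptic (Cav2) calcium channel genes all had slightly lower means in the cKO brains. Cacna1a, the P/Q-type channel of fast transmitter release, was at 8.61, 8.80 and 8.69 in the cKO arrays, against 8.75, 8.73 and 8.79 in the control arrays, a difference of -0.05 (standard error 0.079). Cacna1b, the N-type channel, was at 8.48, 8.33 and 8.20 in the cKO arrays, against 8.44, 8.35 and 8.48 in the control arrays, a difference of -0.08 (standard error 0.094). Cacna1e, the R-type channel, differed by -0.05 in its brightest cluster. The gene has 2 more clusters, and 1 of them was at 8.35, 8.32 and 8.39 in the cKO arrays, against 8.59, 8.61 and 8.61 in the control arrays, without overlap. This cluster differed by -0.25 (standard error 0.067, unadjusted p = 0.00717 and adjusted p = 1 from limma) and was chosen for mention after its values were seen. The dimmest of the 3 differed by -0.17 with a standard error of 0.34, and cKO replicate 1 (6.21) lay far below its other 5 arrays (7.15 to 7.65).

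The T-type (Cav3) genes open at low voltages and support burst firing. Cacna1g, strong in thalamic relay neurons, was at 7.91, 7.60 and 7.43 in the cKO arrays, against 7.79, 7.87 and 7.76 in the control arrays. Its difference was -0.16 (standard error 0.13), and -0.29 without cKO replicate 1, the array with the highest thalamic marker signal. Without control replicate 2 as well, the other array with a high thalamic signal, it was -0.26. Cacna1h was at 7.25, 7.09 and 6.92 in the cKO arrays, against 7.52, 7.11 and 7.07 in the control arrays. Its difference of -0.15 rested on control replicate 1, and was -0.0031 without that array. Cacna1i, the T-type channel of the thalamic reticular nucleus, was at 8.23, 8.73 and 8.47 in the cKO arrays, against 8.31, 8.47 and 8.45 in the control arrays, a difference of 0.07. Its dimmer cluster differed by -0.16.

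Of the HCN channels, Hcn2, which is widely expressed in the forebrain and thalamus, was the pore-forming gene whose groups did not overlap. It was at 7.97, 8.03 and 7.95 in the cKO arrays, against 8.12, 8.17 and 8.17 in the control arrays. This was a fold change of 0.89, or -0.17 in log2 (standard error 0.069, unadjusted p = 0.0454 and adjusted p = 1 from limma). With 1 array left out in turn it stayed between -0.19 and -0.15. Hcn3 was at 7.13, 6.78 and 6.66 in the cKO arrays, against 7, 7.01 and 6.85 in the control arrays, a difference of -0.10. Its 3 dimmer clusters differed by -0.30, -0.04 and 0.47, each with overlapping groups. Hcn4, the HCN channel of the sinoatrial node and the thalamus, was at 6.64, 5.79 and 5.77 in the cKO arrays, against 6.07, 5.97 and 5.92 in the control arrays. Its difference of 0.08 (standard error 0.23) was set by cKO replicate 1, and was -0.20 without it.

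**Figure D2:**
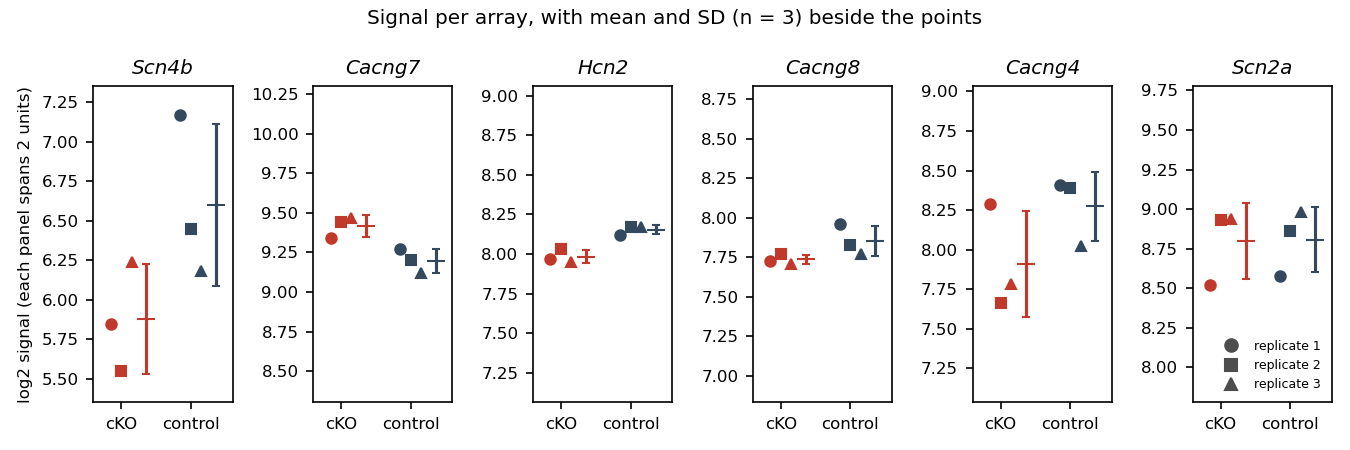
Log2 signal per array (y axis, each panel spanning 2 log2 units at its own level) of 6 channel genes in the cKO (left, red) and control arrays (right, blue-grey), with the replicate number as the point shape and the mean with SD (n = 3) as the bar beside the points. Cacng7 lies above every control array and Hcn2 and Cacng8 below, Scn4b is spread over more than 1 unit, and Scn2a has its low array at replicate 1 in both groups.

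Among the auxiliary genes, Scn4b, a sodium channel beta subunit that supports resurgent sodium current and is known for its high level in striatal projection neurons and Purkinje cells, had the largest difference of the 38 members. It was at 5.85, 5.55 and 6.24 in the cKO arrays, against 7.17, 6.45 and 6.18 in the control arrays. The groups overlapped, since cKO replicate 3 lay above control replicate 3. The means were 5.88 ± 0.34 in the cKO brains and 6.60 ± 0.51 in the control brains (SD, n = 3 each), which differ by -0.72 (standard error 0.28, unadjusted p = 0.0365 and adjusted p = 1 from limma) or 0.607-fold. Without control replicate 1, the highest array, the difference was -0.44, and without control replicate 3 it was -0.93.

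Markers of striatal projection neurons moved with Scn4b from array to array. The mean log2 signal of 8 measured striatal markers (of 10 listed) was 7.42, 6.64 and 7.32 in the cKO arrays, against 8.20, 7.44 and 7.28 in the control arrays. Control replicate 1 was highest and cKO replicate 2 lowest, as for Scn4b. Lower cKO means were found for 7 of the 8 markers, none passed the test, none was in the lowest 25% of genes, and their median difference was -0.57. The dopamine receptor gene Drd2 differed by -0.86 and the striatal signalling regulator Rgs9 by -0.85. Relative to the marker mean, Scn4b was at -1.57, -1.09 and -1.08 in the cKO arrays, against -1.04, -1 and -1.11 in the control arrays. Of the cKO arrays, only replicate 1 lay outside the span of the control arrays, below it. The part of the striatal markers in the result was not tested.

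Scn2b, which links to sodium channel alpha subunits by a disulphide bond as SCN4B does, is the neighbour of Scn4b on chromosome 9, 8.6 kb away. It differed by -0.05 (standard error 0.13), and Scn3b, a non-covalently bound beta subunit, by -0.03 (standard error 0.12). For both genes the groups overlapped, and without cKO replicate 1 the differences were -0.19 and -0.15. The promoters of the neighbours Scn4b and Scn2b are shown because the genes lie side by side and had the largest and one of the smaller differences. Each is 250 bases before to 50 after the RefSeq start (GRCm38.p6), at chr9:45138374-45138673 and chr9:45117626-45117925, both on the plus strand, with each CpG in capitals.
Scn4b: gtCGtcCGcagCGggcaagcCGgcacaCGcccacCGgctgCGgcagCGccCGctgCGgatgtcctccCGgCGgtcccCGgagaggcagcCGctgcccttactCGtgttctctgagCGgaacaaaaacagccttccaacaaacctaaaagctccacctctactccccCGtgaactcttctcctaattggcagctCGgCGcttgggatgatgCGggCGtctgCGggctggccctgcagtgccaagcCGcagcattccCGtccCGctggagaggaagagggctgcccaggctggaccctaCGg
Scn2b: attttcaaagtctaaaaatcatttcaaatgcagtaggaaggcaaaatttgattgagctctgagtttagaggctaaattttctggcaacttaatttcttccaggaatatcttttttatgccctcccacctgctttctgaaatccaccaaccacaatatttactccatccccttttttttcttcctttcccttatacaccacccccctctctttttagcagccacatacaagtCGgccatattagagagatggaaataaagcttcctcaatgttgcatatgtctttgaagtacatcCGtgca
The Scn4b promoter held 26 CpG and 66.3% G and C, against 2 CpG and 38.3% for Scn2b. The arrays do not measure the promoters, and the sequences are given as a description.

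The extracellular alpha2delta subunits raise the number of calcium channels at the membrane, and the products of Cacna2d1 and Cacna2d2 bind gabapentin. In their brightest clusters all 4 genes had lower means in the cKO brains, with overlapping groups in each. Cacna2d4, best known from retina, was at 5.93, 5.72 and 5.51 in the cKO arrays, against 6.30, 5.57 and 6.34 in the control arrays. Its difference of -0.35 (standard error 0.22) was -0.21 without control replicate 3 and -0.60 without control replicate 2, the array that was low among the controls. Of 2 dimmer clusters of Cacna2d4, 1 differed by -0.02 and 1 by -0.48. Cacna2d3 was at 8.51, 8.70 and 8.75 in the cKO arrays, against 9.01, 8.70 and 8.88 in the control arrays, a difference of -0.21 (standard error 0.11, unadjusted p = 0.0953 and adjusted p = 1 from limma). Cacna2d1 was at 7.35, 7.92 and 8.02 in the cKO arrays, against 7.53, 7.89 and 8.20 in the control arrays, a difference of -0.11. Replicate 1 was the lowest array of both groups, and the difference was 0.09 without cKO replicate 1 and 0.05 with clusters averaged. Its 2 dimmer clusters differed by -0.01 and 0.27. Cacna2d2 was at 7.28, 6.88 and 6.85 in the cKO arrays, against 7.19, 7.26 and 6.98 in the control arrays, a difference of -0.14.

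The cytoplasmic calcium channel beta subunits bring the alpha1 subunit to the membrane. Cacnb1 was at 7.42, 7.33 and 7.20 in the cKO arrays, against 7.65, 7.34 and 7.45 in the control arrays, a difference of -0.16 (standard error 0.11). Cacnb2 was at 7.60, 7.50 and 7.45 in the cKO arrays, against 7.34, 7.52 and 7.36 in the control arrays, a difference of 0.11 (standard error 0.084). Cacnb4, the gene mutated in the epileptic mouse lethargic, was at 8.02, 8.47 and 8.56 in the cKO arrays, against 8.09, 8.35 and 8.54 in the control arrays, a difference of 0.02 (standard error 0.17). The groups overlapped for all 3 genes.

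Of the gamma subunit genes, Cacng2, 3, 4, 5, 7 and 8 encode TARPs, proteins that carry AMPA receptors to the synapse and tune their gating, while Cacng1 encodes the gamma subunit of the muscle calcium channel. Cacng7, a TARP that is also linked to calcium channel levels, was the member with the highest positive difference. It was at 9.34, 9.44 and 9.47 in the cKO arrays, against 9.27, 9.20 and 9.12 in the control arrays, without overlap. The means were 9.42 ± 0.067 in the cKO brains and 9.20 ± 0.077 in the control brains (SD, n = 3 each). The difference of 0.22 (standard error 0.079, unadjusted p = 0.0275 and adjusted p = 1 from limma) was a fold change of 1.17, and stayed between 0.18 and 0.26 with 1 array left out in turn. Cacng8, the TARP that is abundant in hippocampus and cortex, lies 25.8 kb from Cacng7 on chromosome 7. It was at 7.73, 7.77 and 7.71 in the cKO arrays, against 7.96, 7.83 and 7.77 in the control arrays, and cKO replicate 2 lay below control replicate 3 only beyond the second decimal. Cacng8 differed by -0.12 (standard error 0.079, unadjusted p = 0.173 and adjusted p = 1 from limma), and by -0.07 without control replicate 1.

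The promoters of Cacng7 and Cacng8 are shown because these nearby genes were the 2 auxiliary genes without overlap, in opposite directions. Between the start of Cacng7 and the end of Cacng8 lies 1 other RefSeq gene. The promoters lie at chr7:3332575-3332874 and chr7:3393792-3394091 (RefSeq, GRCm38.p6, plus strand), again with each CpG in capitals.
Cacng7: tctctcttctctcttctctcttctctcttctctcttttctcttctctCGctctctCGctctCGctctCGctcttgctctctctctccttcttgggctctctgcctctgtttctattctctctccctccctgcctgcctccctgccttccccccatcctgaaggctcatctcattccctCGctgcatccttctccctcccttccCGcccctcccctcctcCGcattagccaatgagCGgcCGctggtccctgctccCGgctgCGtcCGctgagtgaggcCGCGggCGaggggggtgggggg
Cacng8: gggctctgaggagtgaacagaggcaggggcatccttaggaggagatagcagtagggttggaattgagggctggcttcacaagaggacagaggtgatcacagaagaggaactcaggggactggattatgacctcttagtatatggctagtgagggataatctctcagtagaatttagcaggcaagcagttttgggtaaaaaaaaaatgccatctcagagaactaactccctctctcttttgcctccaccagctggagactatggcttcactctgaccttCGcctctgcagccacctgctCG
Cacng7 held 15 CpG and 62% G and C, and Cacng8 2 CpG and 50%. Among the members, 29 had an entry in the RefSeq promoter table, with 39 promoters in all. A GC box (GGGCGG on either strand) was in 16 of these 39 (41%), against 35.7% of all 32851 promoters of the same length, and a TATA box (TATAAA on either strand) in 2 (5.1%), against 13.6%. The median promoter of the members had 11 CpG, against 7 over all promoters. Of the 4 promoters shown, the Cacng7 promoter held 1 GC box and the others none, and none held TATAAA.

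Of the other TARPs, Cacng4, which is known from oligodendrocyte precursors and the striatum, had the most negative difference. It was at 8.29, 7.66 and 7.78 in the cKO arrays, against 8.41, 8.39 and 8.02 in the control arrays. The difference of -0.36 (standard error 0.19, unadjusted p = 0.0948 and adjusted p = 1 from limma) was -0.55 without cKO replicate 1 and -0.24 without cKO replicate 2. The mean of 7 oligodendrocyte markers (of 8 listed) was 8.43, 7.98 and 8.29 in the cKO arrays, against 8.56, 8.66 and 8.36 in the control arrays. All 7 had lower means in the cKO brains, with a median of -0.30, and none passed the test or was in the lowest 25% of genes. The 3 precursor markers had a median of -0.14. Their mean was 6.87, 6.57 and 6.45 in the cKO arrays, against 6.82, 6.82 and 6.64 in the control arrays. Cacng4 was not set relative to this mean. Relative to the oligodendrocyte mean, the difference of Cacng4 was -0.07, and relative to the striatal mean it was 0.15, of the opposite sign. The part of these markers in the result was not tested. Cacng2 (stargazin) was at 7.95, 8.53 and 8.49 in the cKO arrays, against 8.23, 8.49 and 8.65 in the control arrays, a difference of -0.13 with replicate 1 lowest in both groups. Cacng3 differed by 0.11 and Cacng1 by -0.02.

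Cacng5 had the widest interval of the members. It was at 7.41, 6.39 and 6.24 in the cKO arrays, against 6.55, 6.91 and 6.25 in the control arrays, a difference of 0.11 (standard error 0.32). The difference was -0.26 without cKO replicate 1, and -0.08 without both cKO replicate 1 and control replicate 2. The high array of each group was the array with the high thalamic markers, among them the thalamic kinase gene Prkcd, at 8.14, 5.98 and 5.75 in the cKO arrays, against 5.94, 7.61 and 5.83 in the control arrays. Higher cKO means were found for 5 of the 6 thalamic markers, none passed the test and none was in the lowest 25% of genes. Relative to the mean of the markers, Cacng5 was at 0.28, 0.13 and 0.15 in the cKO arrays, against 0.48, -0.04 and 0.16 in the control arrays. Cacna1g was at 0.79, 1.34 and 1.34 on this measure in the cKO arrays, against 1.72, 0.91 and 1.67 in the control arrays. Cacna2d2 was at 0.16, 0.62 and 0.76, against 1.13, 0.30 and 0.89, and Hcn4 at -0.48, -0.46 and -0.32, against 0, -0.98 and -0.17. These 3 genes thus followed the markers less closely than Cacng5. The highest arrays of both groups were cKO replicate 1 and control replicate 2 for 9 of the 38 members (23.7%), against 2479 of all 19687 genes (13%). Besides Cacng5 these were Cacna1g, Cacna2d2, Hcn3, Cacna1f, Cacna1s, Cacnb2, Scn7a and Scn9a. The count rests on rank alone, however small the margin. Cacna1f was at 4.63 in cKO replicate 1 and 4.61 in cKO replicate 3. Scn7a and Scn9a were in the lowest 25% of genes by mean signal. Hcn4 was highest in replicate 1 of both groups. Without cKO replicate 1 and control replicate 2, the count of members at an unadjusted p under 0.05 from limma was again 3. These were Cacna2d4, Cacng4 and Cacng7 in place of Scn4b, Hcn2 and Cacng7. The share of all genes was 5.94%, against 3.96% with all arrays. The part of the thalamic markers in these values was not tested.

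**Figure D3:**
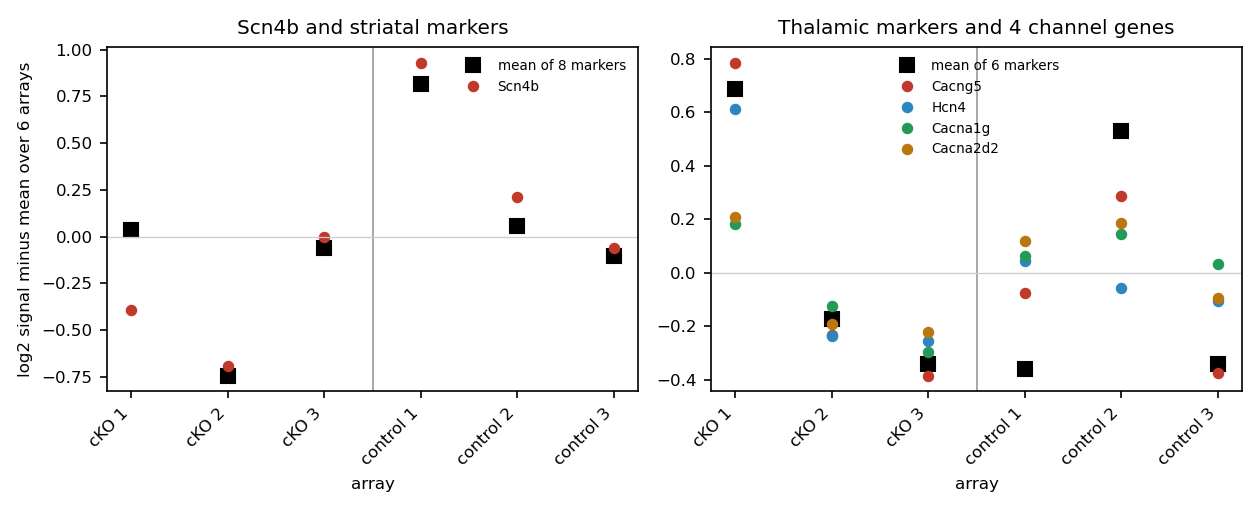
Log2 signal minus the mean over the 6 arrays (y axis) for each array (x axis, cKO left of the line, control right). On the left, Scn4b (red) and the mean of 8 striatal markers (black squares) are both highest in control replicate 1 and lowest in cKO replicate 2. On the right, the mean of 6 thalamic markers is high in cKO replicate 1 and control replicate 2. Cacng5, Cacna1g and Cacna2d2, among 9 members in all, have their highest array of each group there. Hcn4, also shown, is highest in replicate 1 of both groups.

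Some members varied with the replicate number in both genotypes. Lower values in replicate 1 than in the mean of replicates 2 and 3, in both groups, were found for 10 of the 38 members (26.3%), against 21.3% of all genes, and higher values in both for 13 (34.2%), against 44.8%. Scn1a, Cacna2d1, Cacng2, Cacnb4, Scn2a and Scn3a were the members with the most negative shifts. For Scn1a the shift was -0.78 in the cKO arrays and -0.56 in the control arrays, and for Cacna2d1 -0.61 in the cKO arrays and -0.52 in the control arrays. Averaged over both genotypes, these 6 of the 38 members lay lower by 0.3 or more in the arrays numbered 1. The share over all genes was 6.08%. A further 7 of the 38 members lay higher by 0.3 or more, where the share over all genes was 7.04%. The 7 were Cacng5, Hcn4, Scn4b, Cacng4, Cacng1, Cacna1h and Cacna2d4. For Cacng5 the shift lay in the cKO group alone (1.09, against -0.03 in the control group), and for Scn4b in the control group alone (-0.05 in the cKO group, against 0.85 in the control group).

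The 6 lower members had a median gene length of 158.4 kb in the RefSeq table, against 40.5 kb for the 7 higher ones. Across the 38 members, gene length and shift had a Spearman correlation of -0.57, and across 19510 genes with a length one of -0.16. These are correlations across genes of the same 6 arrays, which are not independent replicates, and length was chosen after the shifts were seen. The longest members, Cacna2d3, Cacna1c and Cacna1e, had shifts between -0.01 and 0.02.

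**Figure D4:**
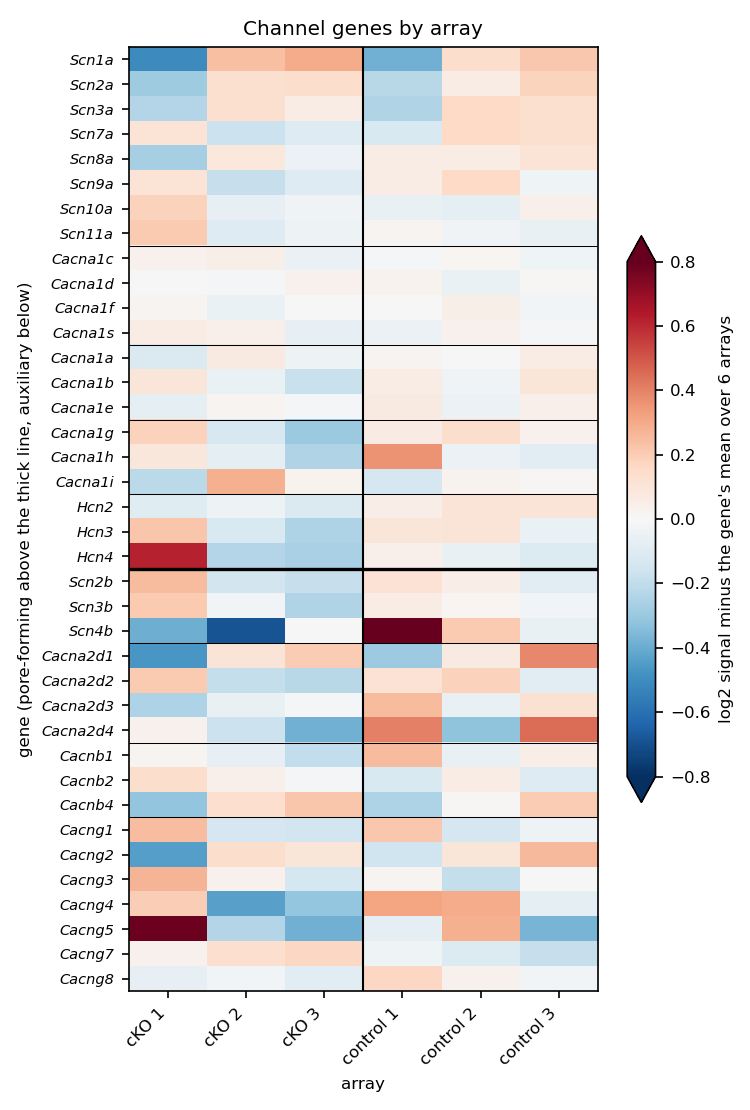
Log2 signal of each of the 38 channel genes (rows, pore-forming above the thick line and auxiliary below) minus its mean over the 6 arrays, for 3 cKO (left) and 3 control arrays (right); red is above and blue below the gene's mean. Scn1a, Scn2a, Scn3a, Cacna2d1, Cacnb4 and Cacng2 are blue at replicate 1 in both groups, while few rows split by genotype.

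**Figure D5:**
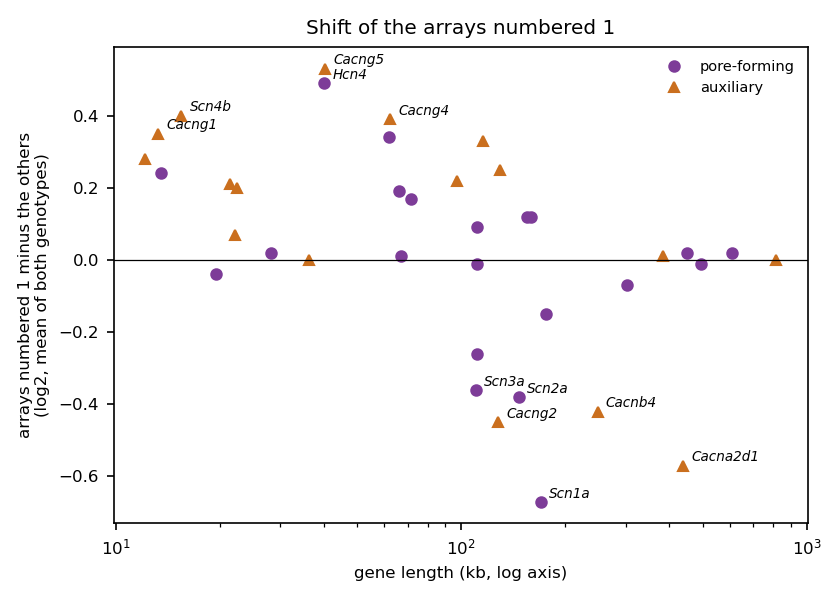
Shift of the arrays numbered 1 against replicates 2 and 3 (y axis, log2, mean of both genotypes) by gene length in the RefSeq table (x axis, kb, log axis) for pore-forming (circles) and auxiliary members (triangles). Scn1a, at -0.67, is lowest and Cacng5, at 0.53, highest.

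Of 9 measured sodium channel partners (FGF homologous factors, ankyrins and other axon initial segment genes), 1 had a higher and 8 a lower mean, none passed the test, and differences ran from -0.22 for the node protein gene Nfasc to 0.09 for Fgf14. The 4 genes of the sodium leak channel complex (Nalcn, Unc79, Unc80 and Fam155a) ran from -0.11 to 0.03. Of 12 calcium channel partners 7 had a higher and 5 a lower mean, and 3 did not overlap between groups, against 8.39% of all genes. Stac2, an adaptor that slows inactivation of L-type channels, was at 6.62, 6.76 and 6.80 in the cKO arrays, against 7.04, 6.97 and 6.99 in the control arrays, a difference of -0.28 (standard error 0.079, unadjusted p = 0.0103 and adjusted p = 1 from limma). Caln1, a calmodulin-like gene, was at 7.54, 7.63 and 7.60 in the cKO arrays, against 8.10, 7.73 and 7.78 in the control arrays, a difference of -0.28 that was -0.16 without control replicate 1. Stac3, the skeletal muscle adaptor, was at 5.38, 5.39 and 5.34 in the cKO arrays, against 5.22, 5.31 and 5.32 in the control arrays, a difference of 0.08. Of 4 HCN channel partners, among them Pex5l, which regulates HCN trafficking, none had an unadjusted p under 0.05, and Pex5l differed by 0.04.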

How the data were processed

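Total RNA of 6 samples was hybridised to GeneChip mouse exon arrays. The authors deposited log2 signals of 101175 transcript clusters per array, and the paper's methods name GeneSpring. The sources used here give neither the summarisation and normalization nor the genome build. A deposited table of the authors' own fold changes and p-values was not used. The array annotation gives 1 symbol for 22754 clusters and several for 1522, and 76899 are unnamed here. Of the clusters with 1 symbol, 22245 were found in RefSeq (GRCm38.p6) by identifier. The cluster with the highest mean was kept for each of 19687 genes, without a filter on dim genes. Of the members, 6 had several clusters.

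A linear model with moderated variances was fitted to all genes in limma 3.58.1 under R 4.3.3. Both directions were tested, and p-values were adjusted by the Benjamini-Hochberg method with 0.05 as the threshold. The procedure was tested on simulated data with 200 changed genes. It recovered 0% of them at a log2 change of 0.5, 76% at 1 and 94% at 2. The number of arrays limits the precision. Lists were described by counts and medians, without a set test. Per-array values are given for members with an unadjusted p under 0.05, no overlap or the largest difference in each direction of a subfamily, for a fixed set of main cortical subunits, and for some members added after the values were seen. The members and lists were chosen with earlier results of these data known. Alternatives were another quantile normalization, median centring, a filter on dim genes, averaged clusters, other variance models, the replicate block and each array left out; leaving out both arrays numbered 1, and the arrays with the highest thalamic signals, was added after seeing the data.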

Additional observations from a re-analysis of the deposited data

How the results depend on the processing

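Another quantile normalization and centring on the median kept the direction of all 38 members. Trended and robust variances, no moderation of the spread and the replicate block change only the standard error and p, not the differences. Their direction could therefore not turn under these settings. No member passed adjustment under any alternative. The count of all genes past an adjusted p of 0.05 from limma was 0, except that 1 gene (Peg10) passed when the dimmest 25% of genes were left out and 1 when each gene's clusters were averaged. With unadjusted p under 0.05 there were 779 genes at first, and 542 and 816 under these alternatives. With 1 array left out in turn, the count of members with an unadjusted p under 0.05 lay between 0 (without cKO replicate 2) and 6 (without cKO replicate 1), and the count of all genes between 615 and 1509. The median of the pore-forming genes lay between -0.061 and -0.006, and that of the auxiliary genes between -0.147 and -0.055. The same-numbered arrays correlated by 0.31, 0.04 and 0.17 over all genes after removal of the group means, and they were not taken as pairs. With the replicate block, 3 members (Cacng4, Cacng7 and Scn4b) and 1156 of all genes (5.87%) had an unadjusted p under 0.05. The following differences had either sign with 1 array left out, from the lowest to the highest value: Cacna1d -0.0058 to 0.036, Cacna1f -0.034 to 0.0031, Cacna1s -0.0073 to 0.062, Cacna1i -0.06 to 0.189, Hcn4 -0.204 to 0.23, Scn10a -0.013 to 0.108. The same held for Scn11a -0.04 to 0.112, Scn1a -0.167 to 0.278, Scn2a -0.125 to 0.127, Scn3a -0.159 to 0.078, Cacna2d1 -0.283 to 0.094, Cacnb4 -0.095 to 0.187, and for Cacng1 -0.153 to 0.078, Cacng2 -0.247 to 0.053, Cacng5 -0.256 to 0.325, Scn2b -0.19 to 0.031, Scn3b -0.147 to 0.078. With clusters averaged, the auxiliary median was -0.05 and 4 members (Cacna2d4 added) had an unadjusted p under 0.05, and the sign turned for Cacna1i (-0.046), Hcn3 (0.0075) and Cacna2d1 (0.05). Without both arrays numbered 1 it turned for Cacna1s (-0.025), Cacna1e (0.0044), Hcn4 (-0.164), Scn10a (-0.027), Scn11a (-0.019), Scn2a (0.015) and Cacng5 (-0.266). Without the arrays with the highest thalamic signals it turned for Hcn4 (-0.21), Scn10a (-0.038), Scn11a (-0.043), Scn2a (0.153), Scn3a (0.151), Cacna2d1 (0.103), Cacng2 (0.069), Cacng3 (-0.063) and Cacng5 (-0.084). The cause of these turns was not tested. The last 2 settings were chosen after seeing the data. The precision is limited by 3 arrays per group, and a signal near the background says little about the 4 dimmest members.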
